A study of Mus musculus with 9 samples.

Results

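Astrocyte genes were followed across 9 bulk RNA sequencing libraries of CT2A tumour tissue from mouse brains. CT2A is a mouse glioma cell line. The set held 10 genes, taken by gene symbol as established marker genes of astrocytes, by a rule that sets no threshold on their values: Gfap, Aqp4, S100b, Slc1a2, Slc1a3, Aldh1l1, Aldoc, Sox9, Gja1 and Agt. The set was nevertheless chosen with earlier results of these data known. All 10 were found among the 18639 gene entries, and all 10 passed the filter on low values that left 13829 genes for testing. The tissue was taken on day 5 after tumour resection, in 3 groups of 3 libraries. One group had received ThTC, CT2A cells secreting the cytokines IFNβ (a type I interferon) and GM-CSF. Another had received GFP-TC, the control cells, and the last sECM only. In every group the tissue came from wild-type CT2A tumours that had been resected, a model built on a single cell line. The values were TPM, an abundance measure that accounts for gene length, so levels can be compared between genes. Because TPM is closed to a fixed library total, it keeps no read depth, and the labels give only the sequencing yield, 4.47 Gb per sample. Whether replicate libraries stem from different animals is not stated, so p-values describe the spread of these libraries, which may be technical.

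Astrocytes are the support cells of the brain. They clear glutamate from synapses through surface transporters, move water and potassium at their endfeet on blood vessels, couple to each other through gap junctions and supply neurons with metabolites. After injury and around tumours they become reactive and increase their intermediate filaments, with Gfap as the usual marker. Several astrocyte genes are shared with neural progenitors and glioma cells, Sox9 and Gja1 among them, while others, such as Aqp4 and Slc1a2, are typical of mature astrocytes.

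The 9 libraries differed in how much RNA of normal brain they held. A brain tissue score was therefore computed for each library from 12 neuron and 12 oligodendrocyte genes, none of them an astrocyte gene of the set. The score is the mean log2 level of the 24 genes after centring each gene over the libraries, so a difference of 1 is a difference of 1 in their mean log2 level. It was -1.34, -0.036 and 1.96 in ThTC 1, 2 and 3, -1.56, 0.11 and 1.67 in GFP-TC 1, 2 and 3, and 0.17, -0.65 and -0.31 in sECM only 1, 2 and 3. ThTC 3 and GFP-TC 3 stood apart at the high end, and GFP-TC 1 and ThTC 1 at the low end. Snap25, a synaptic gene, reached 414 TPM in ThTC 3 and 18.5 TPM in GFP-TC 1, the lowest of the 9 libraries. GFP-TC 1 also held 384 TPM of Ttr, the main product of the choroid plexus, against at most 111 TPM in any other library.

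The intermediate filament gene Gfap (chromosome 11, 102887336 to 102897200, GRCm38.p6) had the highest mean level of the set in every group. It was at 216, 320 and 857 TPM in ThTC 1, 2 and 3, at 77.9, 327 and 715 TPM in GFP-TC 1, 2 and 3, and at 396, 219 and 208 TPM in sECM only 1, 2 and 3. The ThTC and GFP-TC libraries spanned nearly the whole range, and the sECM only libraries lay inside it. Aqp4 (chromosome 18, 15389394 to 15410982), the water channel of astrocyte endfeet, was at 13.7, 25.1 and 62.6 TPM in the ThTC libraries, 7.53, 34.2 and 52.9 TPM with GFP-TC, and 29.2, 18.3 and 15.4 TPM with sECM only. S100b (chromosome 10, 76253836 to 76261319), a calcium-binding protein gene, was at 9.30, 23.2 and 57.2 TPM in the ThTC libraries, 6.37, 18.4 and 40.8 TPM with GFP-TC, and 24.5, 14.2 and 11.97 TPM with sECM only. Within each group the values are given in the order of replicates 1, 2 and 3. For both genes library 3 was the highest of the ThTC and of the GFP-TC group, and library 1 the highest of sECM only.

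The glutamate transporter genes had the same layout. Slc1a2 (chromosome 2, 102658239 to 102790784; GLT-1), the main glutamate transporter of the forebrain, was at 8.80, 14.7 and 83.9 TPM in the ThTC libraries, 4.76, 20.4 and 83.5 TPM with GFP-TC, and 22.7, 14.1 and 17.9 TPM with sECM only. Its 17.6-fold range over the 9 libraries was the widest of the set. Slc1a3 (chromosome 15, 8634124 to 8710807; GLAST), the paralog found also in progenitors and radial glia, was at 21.7, 37.5 and 118 TPM in the ThTC libraries, 11.2, 56.1 and 106.95 TPM with GFP-TC, and 45.1, 25.97 and 28.6 TPM with sECM only. Slc1a3 was above Slc1a2 in each of the 9 libraries.

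Of the metabolic enzymes, Aldoc (chromosome 11, 78323073 to 78327781), the brain aldolase of glycolysis, was at 42.9, 58.9 and 228 TPM in the ThTC libraries, 15.5, 50.7 and 190 TPM with GFP-TC, and 85.3, 45.3 and 45.7 TPM with sECM only. Aldh1l1 (chromosome 6, 90550768 to 90599171), a folate enzyme, was at 7.43, 16.4 and 31.5 TPM in the ThTC libraries, 6.40, 20.5 and 24.1 TPM with GFP-TC, and 13.5, 10.7 and 7.35 TPM with sECM only. Its 4.93-fold range was the smallest of the 7 genes described so far. All 7 were lowest in GFP-TC 1 and highest in ThTC 3, the libraries with the lowest and the highest brain tissue score.

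The other 3 genes were laid out differently. Sox9 (chromosome 11, 112782210 to 112787757), a transcription factor of glial fate, was at 61.1, 39.9 and 46.4 TPM in the ThTC libraries, 65.4, 77.9 and 61.2 TPM with GFP-TC, and 79.3, 67.9 and 89.7 TPM with sECM only. Gja1 (chromosome 10, 56377300 to 56390419; connexin 43), the main gap junction protein of astrocytes, was at 112, 102 and 121 TPM in the ThTC libraries, 126, 141 and 122.79 TPM with GFP-TC, and 116, 117 and 122.70 TPM with sECM only. Its highest library, GFP-TC 2, was 1.38-fold above its lowest, ThTC 2. Agt (chromosome 8, 124556587 to 124569706), angiotensinogen, was at 4.98, 5.39 and 16.5 TPM in the ThTC libraries, 9.75, 11.9 and 10.6 TPM with GFP-TC, and 9.16, 7.87 and 17.0 TPM with sECM only. In ThTC 1 and GFP-TC 1, where Slc1a2 was at 8.80 and 4.76 TPM, Gja1 stood at 112 and 126 TPM and Sox9 at 61.1 and 65.4 TPM.

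**Figure D1:**
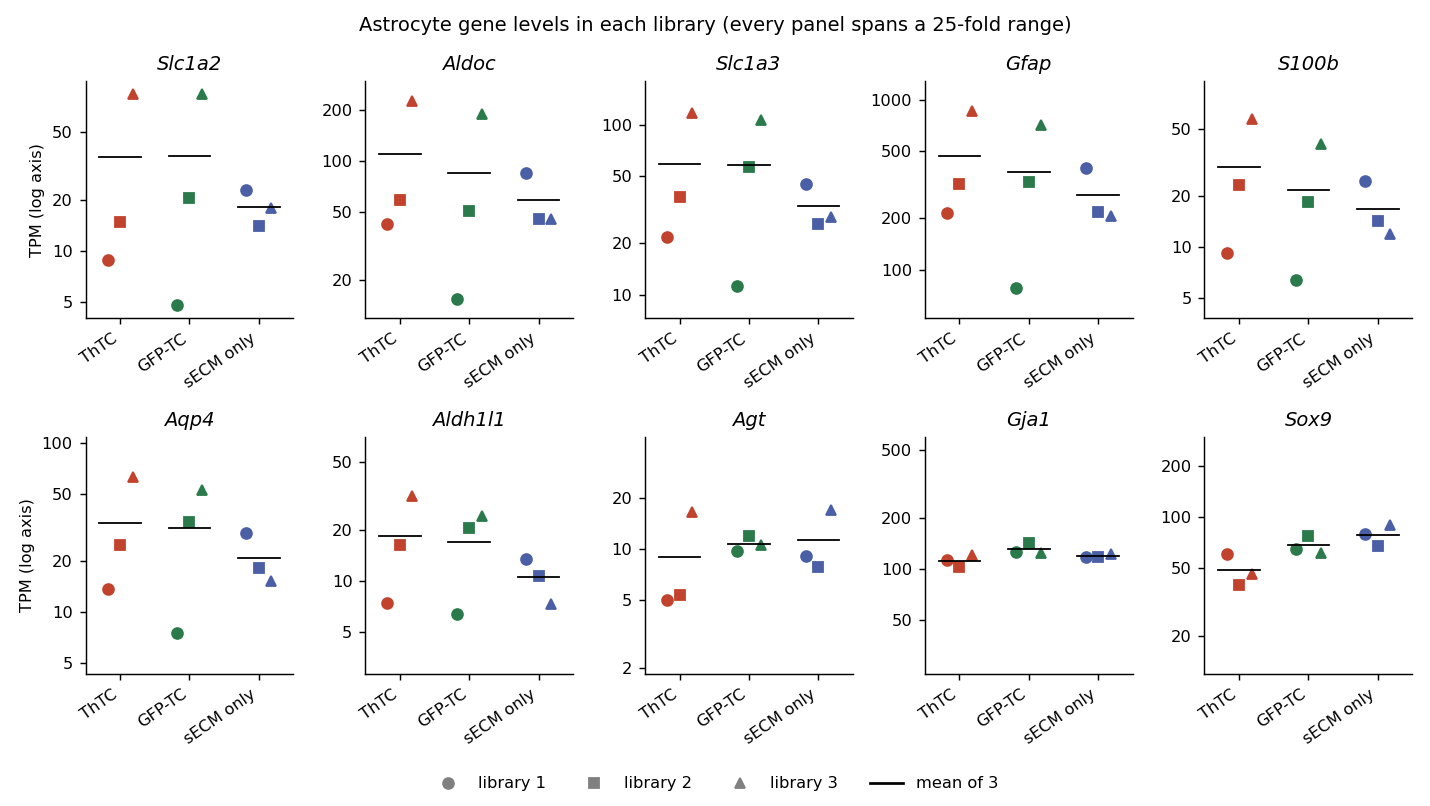
TPM of the 10 astrocyte genes, 1 panel a gene in order of slope on the brain tissue score, on a log axis with the same fold range in each panel; points are the 3 libraries of ThTC, GFP-TC and sECM only, with marker shapes for replicate numbers, and the line is the group mean. The spread within ThTC and within GFP-TC is wide for 7 genes, up to 17.6-fold over all libraries for Slc1a2, and narrow for Gja1, at 1.38-fold.

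The relation to brain content was then fitted. The slope of log2(TPM + 1) on the score, with a term for group, was estimated for each gene with limma, and p-values were adjusted over all tested genes by the Benjamini-Hochberg method at a threshold of 0.05. A slope of 1 means that the gene moved as much as the neuron and oligodendrocyte genes on average, and 0 that it did not move with them. Of the 10 astrocyte genes, 7 rose with the score and 0 fell, where 25.1% of the 13805 tested genes outside the score had a called positive slope and 4.20% a called negative one. The median slope was 0.75 over the set and 0.042 over all these genes. In bulk tissue, fewer cells of a type and less RNA per cell cannot be told apart, and the score does not separate them either.

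Slc1a2 had the steepest slope of the set, 1.07 ± 0.068 (SE; 95% interval 0.92 to 1.22; limma, adjusted p = 1.67e-06), an interval that contains 1. Aldoc followed at 0.92 ± 0.079 (adjusted p = 1.19e-05), with an interval of 0.74 to 1.10 that also contains 1. Slc1a3 was at 0.85 ± 0.071 (interval 0.70 to 1.01; adjusted p = 9.37e-06). Gfap had a slope of 0.80 ± 0.082 and S100b one of 0.77 ± 0.060, with intervals of 0.62 to 0.99 and 0.64 to 0.90. Aqp4 was at 0.74 ± 0.079 and Aldh1l1 at 0.56 ± 0.081, with intervals of 0.56 to 0.91 and 0.38 to 0.74 (limma, adjusted p = 5.33e-05 and 0.000431). Neighbours in this order had overlapping intervals. All 7 kept their call under each of the 18 alternative settings of that fit, but not their order. Without ThTC 3 and GFP-TC 3, Slc1a3 was the steepest at 1.04, followed by Aqp4 at 0.98, Gfap at 0.95, S100b at 0.89, Slc1a2 at 0.89, Aldh1l1 at 0.82 and Aldoc at 0.80.

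The slopes of the other 3 genes did not pass. That of Agt was 0.26 ± 0.12 (SE; interval 0.0023 to 0.53; limma, adjusted p = 0.12), and it moved with single libraries, to 0.044 without ThTC 3 and 0.41 without GFP-TC 3 (adjusted p = 0.85 and 0.060). That of Gja1 was 0.015 ± 0.033, with an interval of -0.058 to 0.088, which lies below the slopes of all 7 (limma, adjusted p = 0.77). That of Sox9 was -0.055 ± 0.058, with an interval of -0.18 to 0.074 (limma, adjusted p = 0.53). For Gja1 the sign changed with median-of-ratios scaling of the libraries, to -0.037, and without ThTC 3, and for Sox9 it changed without ThTC 1.

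**Figure D2:**
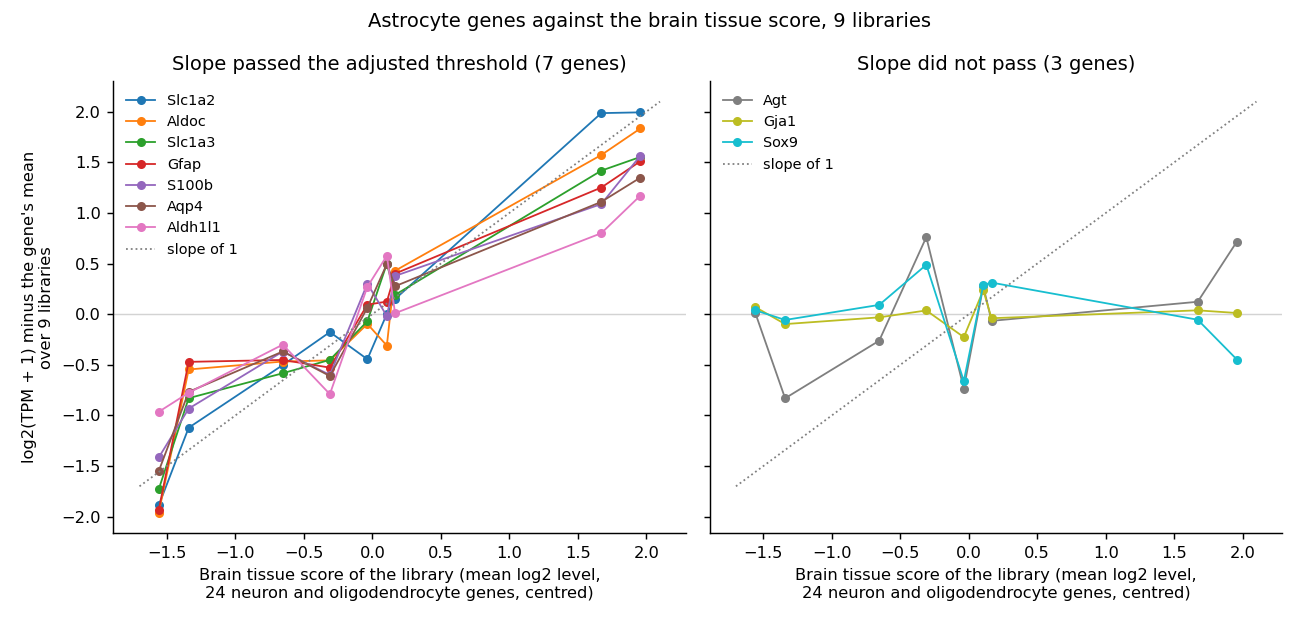
Level of each astrocyte gene, as log2(TPM + 1) minus the gene's mean over 9 libraries, against the brain tissue score of the library; each point is 1 gene in 1 library, lines join the libraries in order of score, and the dotted line marks a slope of 1. The 7 genes on the left are highest in ThTC 3, at a score of 1.96, and lowest in GFP-TC 1, at -1.56, while Gja1 and Sox9 on the right show no such order and Agt scatters.

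Differences between members were tested on log2 ratios of a pair of genes, with exact two-sided permutation tests over all 362880 orders of the 9 score values. For Aqp4 against Sox9 the log2 ratio rose by 0.83 per unit of score (exact permutation p = 0.000846; 0.00169 after Benjamini-Hochberg adjustment over both pairs tested). Leaving out ThTC 3 and GFP-TC 3 together gave a similar slope of 0.87 with an exact permutation p of 0.051, just over the threshold. For the paralogs Slc1a2 and Slc1a3 the slope of the log2 ratio was 0.20 (exact permutation p = 0.0647, and the same after adjustment). Without ThTC 3 and GFP-TC 3 that slope was -0.023 (exact permutation p = 0.89). A steeper climb of Slc1a2 was thus not established, and its estimate depended on those libraries.

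Correlations between the members were described over the 9 libraries, which share their brain content and whose values are closed to a common total. Among the 7 genes with called slopes, the 21 pairs had Pearson correlations of log2(TPM + 1) between 0.85 and 0.99, with a median of 0.96. Aqp4 and Slc1a3 were the closest pair, at 0.99. The 21 pairs of one of these genes with Sox9, Gja1 or Agt had correlations between -0.44 and 0.50, with a median of 0.11. These are descriptions over 9 libraries of 3 groups. The genes were grouped by their slopes on the score in the same libraries. The split in correlations therefore follows from that grouping and is no separate result.

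Genes with the most similar pattern over the 9 libraries were looked up among 11192 genes that averaged at least 5 TPM. For Gfap they were Sdr39u1, Lrtm2 and Serpina3n, with Pearson r of 0.993, 0.990 and 0.990. Serpina3n, a protease inhibitor gene used as a marker of reactive astrocytes, ran between 51.3 TPM in GFP-TC 1 and 384 TPM in GFP-TC 3. For Aqp4 they were Gpr37l1, an orphan receptor gene of astrocytes, Tgfa, which encodes a ligand of the EGF receptor, and Scg3, a secretory granule gene, with r of 0.994, 0.994 and 0.993. For Sox9 they were Depdc1b, Ppp1r13l and Dazap1, with r of 0.975, 0.971 and 0.966, and Dazap1 ran only between 156 and 224 TPM. The best match of a gene among so many is high by selection.

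Most other astrocyte genes rose with the score too. Of a list of 24, 22 rose with the score and 0 fell, with a median slope of 0.79, where 25.1% of all genes rose and 4.20% fell. Sparcl1, a secreted matrix protein gene, had a slope of 0.89 ± 0.035, Glul, the glutamine synthetase that converts the glutamate taken up by astrocytes, one of 0.72 ± 0.034, and Ndrg2, a cytosolic protein gene of mature astrocytes, one of 0.98 ± 0.055 (SE; limma, adjusted p between 3.42e-07 and 8.30e-07). The 2 that did not pass were Pla2g7, at 0.13, and Aqp9, at 0.21, and Aqp9 was at no more than 1.44 TPM in any library. Of 22 reactive astrocyte genes, many of which immune or tumour cells also express, 10 rose and 2 fell, with a median slope of 0.26. Serpina3n had a slope of 0.72 ± 0.075, the receptor gene S1pr3 one of 0.60 ± 0.084 and the small heat shock gene Hspb1 one of 0.42 ± 0.057 (SE; limma, adjusted p = 4.42e-05, 0.000329 and 0.000289). The 2 that fell were the membrane protein genes Emp1, at -0.12, and Tm4sf1, at -0.20.

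The list of glioma, progenitor and cycling cell genes had a median slope of -0.046, with 3 of its 17 genes rising and 3 falling. Over all genes outside the score, 25.1% rose and 4.20% fell. Those that rose were Olig2 at 0.80, a factor also of oligodendrocyte lineage cells, Prom1 at 0.44 and the radial glia gene Fabp7 at 0.44. Those that fell were the stem cell factor Sox2, at -0.18, and the mitotic genes Cdk1, at -0.14, and Ccnb1, at -0.12. Of all tested genes, 40.4% had a lower slope than Gja1 and 16.0% a lower one than Sox9. Its genes summed to between 4435 TPM in ThTC 3 and 6227 TPM in GFP-TC 2, a 1.4-fold range, of which Vim, also counted among the reactive genes, was the largest part.

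Lists of further cell types were read against the 25.1% of all genes with a called positive slope and the 4.20% with a called negative one. Of 8 microglia and macrophage genes 7 rose, with a median slope of 0.28, of 5 endothelial genes 3 rose, with a median of 0.15, and of 6 tested ependyma and choroid plexus genes 2 rose, with a median of 0.36. Of 9 tested genes of fibroblasts, meninges and pericytes 1 rose and 1 fell. Their part in the slopes of the astrocyte genes was not tested.

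**Figure D3:**
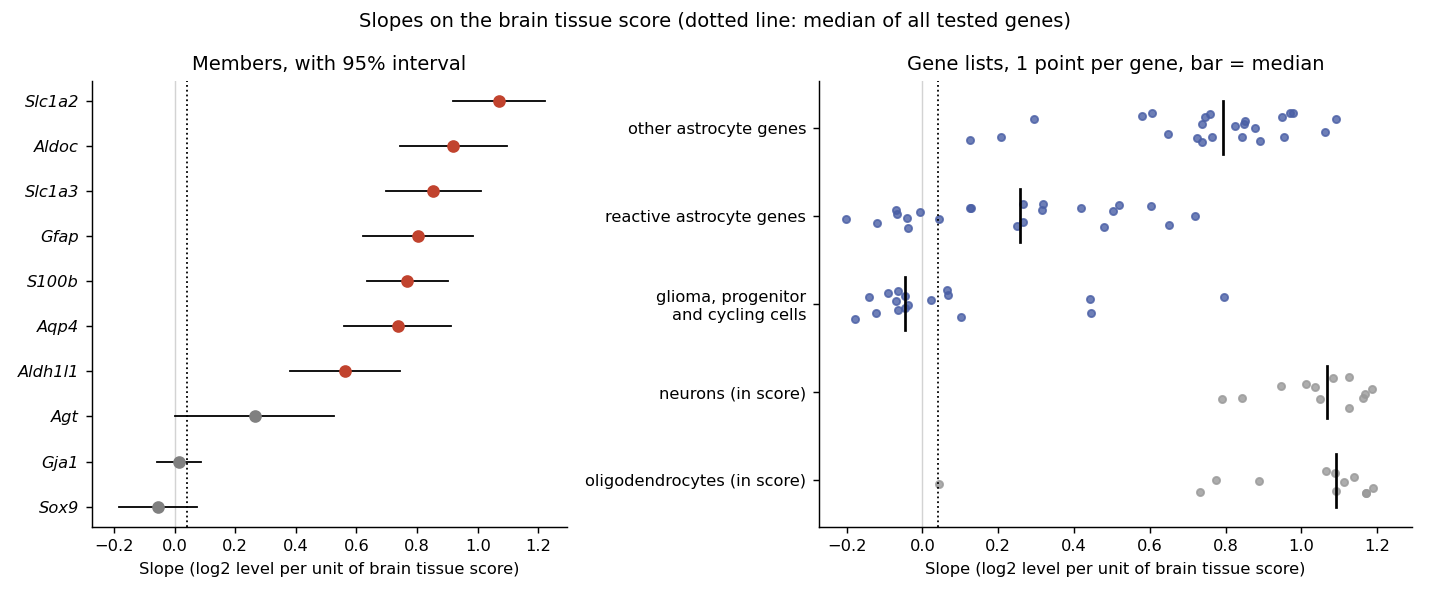
Slopes of log2(TPM + 1) on the brain tissue score, from limma with a group term: on the left the 10 astrocyte genes with 95% intervals, on the right every tested gene of other lists as a point, with the list's median as a bar. Slc1a2 at 1.07 and Sox9 at -0.055 are the ends of the set, 22 of 24 other astrocyte genes rose, and the glioma, progenitor and cycling list centres on -0.046, near the median of all tested genes (dotted line, 0.042).

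Promoter windows are shown for 4 members, Slc1a3 and Gfap from the steep end of the slope order and Gja1 and Agt from the low end. They set beside each other genes whose slopes were called and genes whose slopes were not. Agt was low only within the set, as 82.3% of all tested genes had a lower slope. Each is the 250 bases before the gene's start on its own strand, from RefSeq on GRCm38.p6. Such windows were found for 8 of the 10 genes, and Slc1a2 and Aldoc were passed over because an annotated exon lies in theirs. The positions are chr15:8710808-8711057 for Slc1a3, chr11:102897201-102897450 for Gfap and chr8:124569707-124569956 for Agt, all on the minus strand, and chr10:56377050-56377299 for Gja1 on the plus strand. Capitals mark matches to the STAT motif TTCNNNGAA.
Slc1a3: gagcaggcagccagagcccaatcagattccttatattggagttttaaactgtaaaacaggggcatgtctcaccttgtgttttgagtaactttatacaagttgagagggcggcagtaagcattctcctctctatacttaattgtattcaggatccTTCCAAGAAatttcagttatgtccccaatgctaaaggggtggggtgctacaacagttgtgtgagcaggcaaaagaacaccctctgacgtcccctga
Gfap: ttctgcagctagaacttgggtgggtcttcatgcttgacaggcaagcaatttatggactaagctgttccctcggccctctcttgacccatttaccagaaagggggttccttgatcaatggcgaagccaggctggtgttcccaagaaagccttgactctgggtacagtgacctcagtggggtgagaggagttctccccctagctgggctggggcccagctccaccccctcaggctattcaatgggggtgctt
Gja1: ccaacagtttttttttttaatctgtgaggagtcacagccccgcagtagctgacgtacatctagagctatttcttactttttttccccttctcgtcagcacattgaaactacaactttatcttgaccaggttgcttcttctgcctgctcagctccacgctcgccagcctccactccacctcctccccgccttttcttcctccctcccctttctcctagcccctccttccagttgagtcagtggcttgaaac
Agt: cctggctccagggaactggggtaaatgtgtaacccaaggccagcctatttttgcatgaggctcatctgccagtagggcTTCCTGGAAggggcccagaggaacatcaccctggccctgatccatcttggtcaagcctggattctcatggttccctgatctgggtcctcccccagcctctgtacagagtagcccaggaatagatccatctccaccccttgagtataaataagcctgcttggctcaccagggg
The windows were searched on both strands for TTCNNNGAA, for the palindromic NFI motif and for the SOX motifs ACAAAG and ACAATG, and the matches found do not overlap. The match in Slc1a3 starts 96 bases before the gene's start and that in Agt 172 bases before it, so the motif was in 1 window of each kind. Of 27025 RefSeq promoter windows of the same length, 7.14% hold TTCNNNGAA, 0.0407% the NFI motif, 16.5% ACAAAG and 10.9% ACAATG. The 4 windows printed held no match to the NFI motif or to either SOX motif. GC content was 44.8% for Slc1a3, 55.6% for Gfap, 50% for Gja1 and 55.6% for Agt.

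Within the 7 genes, single libraries departed from the line on the score, here drawn through the 9 libraries without a group term. The departures of Gfap and Aldoc were the widest, at 0.61 and 0.69 above the line in ThTC 1 and 0.67 and 0.53 below it in GFP-TC 1, although the scores of these libraries were close, at -1.34 and -1.56. In TPM, Gfap was at 216 in ThTC 1 and at 77.9 in GFP-TC 1. GFP-TC 2 lay above the line for Aldh1l1, Aqp4 and Slc1a3, by 0.52, 0.42 and 0.41, and below it for Aldoc, by 0.41. In sECM only 3, Aldh1l1 lay 0.61 below its line and Agt 0.83 above. The number of the 10 genes above their lines was 7 in ThTC 1, GFP-TC 2 and sECM only 2, 6 in sECM only 1, 4 in ThTC 2, ThTC 3, GFP-TC 3 and sECM only 3, and 2 in GFP-TC 1. Each departure is a single value with no error of its own.

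**Figure D4:**
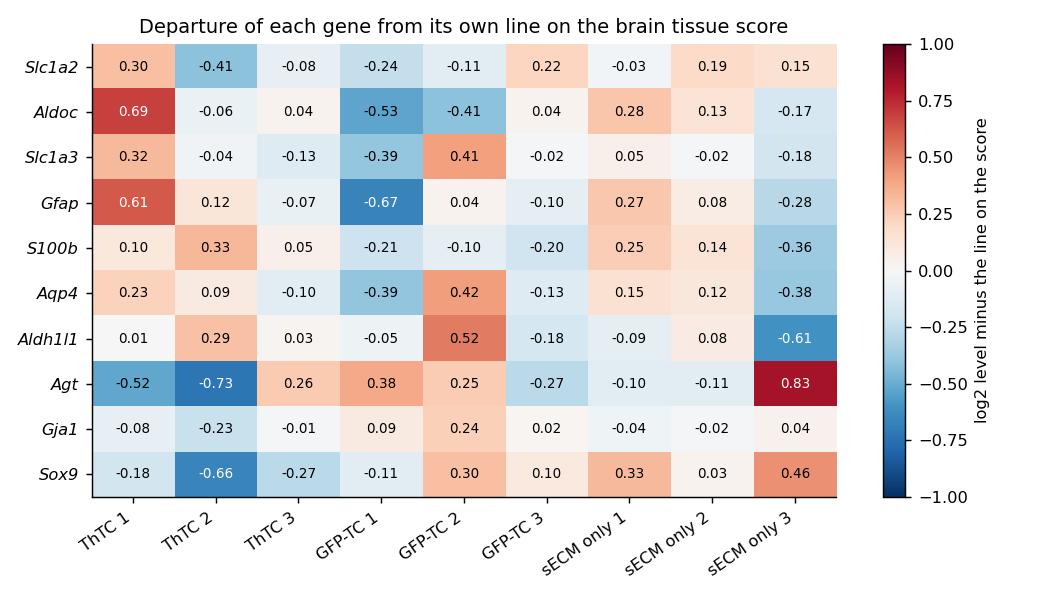
Difference of each gene's log2(TPM + 1) from its own line on the brain tissue score, with genes in rows in order of slope and the 9 libraries in columns; red is above the line and blue below. Gfap and Aldoc are high in ThTC 1 and low in GFP-TC 1, and Sox9 lies below its line in all 3 ThTC libraries.

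ThTC against GFP-TC compares the tissue given the cytokine-secreting cells with the tissue given the control cells. No astrocyte gene passed the threshold (limma, 0 of 10 called, with 0.00% of all tested genes called). At an unadjusted p under 0.05 there were 2, Sox9 and Gja1, both with lower means with ThTC, where 14.9% of all genes had such a p and 12.9% were lower. Sox9 averaged 49.1 ± 10.9 TPM with ThTC, against 68.2 ± 8.69 TPM with GFP-TC (SD, n = 3 each), a log2 fold change of -0.48 ± 0.17 (SE; interval -0.87 to -0.087; limma, adjusted p = 0.32). Gja1 averaged 111 ± 9.26 TPM with ThTC, against 130 ± 9.83 TPM with GFP-TC (SD, n = 3 each), a log2 fold change of -0.22 ± 0.086 (interval -0.42 to -0.023; limma, adjusted p = 0.32). Every ThTC library lay below every GFP-TC library for both genes, as was the case for 16.9% of all tested genes, while 2.20% lay wholly above. The median of all genes was -0.10, and 0.021 after median-of-ratios scaling. On that scale the difference was -0.35 for Sox9 and -0.084 for Gja1, with unadjusted limma p-values of 0.071 and 0.32, both over 0.05. For Gja1 the unadjusted p was also over 0.05 with a replicate block, at 0.060 in all 9 libraries.

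For the other 8 genes the ThTC and GFP-TC libraries overlapped. Gfap averaged 465 ± 344 TPM with ThTC, against 373 ± 321 TPM with GFP-TC, and Slc1a2 35.8 ± 41.8 TPM with ThTC, against 36.2 ± 41.7 TPM with GFP-TC (SD, n = 3 each). With such spreads the intervals were wide, at -1.23 to 2.36 for the log2 fold change of Gfap and at -2.22 to 2.43 for that of Slc1a2, so both contain differences of more than 2-fold in either direction. Agt had a mean of 8.95 ± 6.52 TPM with ThTC, against 10.7 ± 1.07 TPM with GFP-TC (SD, n = 3 each). The median log2 fold change over the 10 genes was 0.13, with 7 higher and 3 lower mean log2 levels with ThTC. In a fit of the 6 libraries of both groups with the replicate number as a block, intervals were narrower, at 0.047 to 1.08 for Gfap and -0.37 to 0.58 for Slc1a2. No label explains the replicate numbers, so the pairing in this fit is an assumption. In that fit 4 of the 10 genes had an unadjusted p under 0.05, namely Gfap, S100b, Aldoc and Sox9, where 17.5% of all genes had one. Of these, Sox9 was lower with ThTC in 3 of 3 pairs, S100b and Aldoc were higher in 3 of 3 and Gfap in 2 of 3. None of the 10 was called (limma with replicate block, adjusted p of 0.22 or more), where 0.0731% of all genes were.

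The comparison of ThTC with sECM only covers the whole treatment. Again 0 of 10 genes were called by limma, with 0.00% of all genes, and 1 had an unadjusted p under 0.05, where 6.90% of all genes had one and 5.36% were lower. That gene was Sox9, with 49.1 ± 10.9 TPM with ThTC, against 78.9 ± 10.9 TPM with sECM only (SD, n = 3 each). Its log2 fold change was -0.69 ± 0.17 (SE; interval -1.08 to -0.29; limma, adjusted p = 0.69), or -0.64 after median-of-ratios scaling. The 3 ThTC libraries lay below the 3 sECM only libraries, a layout that 12.1% of all tested genes had, while 5.03% lay wholly above. For the 7 genes that rose with the score, mean TPM was higher with ThTC, by 1.61-fold for Aqp4 to 1.97-fold for Slc1a2. In ThTC 1, 5 of the 7 lay below every sECM only library, and without ThTC 3 the difference was negative for Aqp4, S100b, Slc1a2, Slc1a3 and Aldoc.

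GFP-TC against sECM only shows the control cells without the factors. Here limma called 0 of 10 genes, with 0.00% of all genes, and 0 had an unadjusted p under 0.05, where 0.933% of all genes had one. Gja1 averaged 130 ± 9.83 TPM with GFP-TC, against 119 ± 3.52 TPM with sECM only (SD, n = 3 each), and every GFP-TC library lay above every sECM only library, as for 3.15% of all genes, with 1.08% wholly below. The nearest values were 122.79 TPM in GFP-TC 3 and 122.70 TPM in sECM only 3, and the log2 fold change was 0.13 ± 0.086 (SE; interval -0.070 to 0.32; limma, adjusted p = 0.997). Sox9 averaged 68.2 ± 8.69 TPM with GFP-TC, against 78.9 ± 10.9 TPM with sECM only, with overlapping groups. Both comparisons of ThTC share the ThTC libraries, and each shares its control libraries with GFP-TC against sECM only. The values for Sox9 are therefore not independent of each other.

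With the brain tissue score as a covariate, the intervals of the 7 genes shrank. These genes were picked by their slopes on that score in the same libraries, so the narrowing follows from the choice. The interval for Slc1a2, ThTC against GFP-TC, became -0.43 to 0.39 around -0.021, and that for Slc1a3 -0.38 to 0.48 around 0.052. Aldoc and Gfap had the largest positive estimates, at 0.52 (interval 0.041 to 0.998; limma, adjusted p = 0.18) and 0.47 (interval -0.030 to 0.96; adjusted p = 0.22). Sox9 kept its estimates, at -0.47 for ThTC against GFP-TC and -0.66 for ThTC against sECM only (limma, adjusted p = 0.16 and 0.35). No astrocyte gene was called in any of the 3 comparisons, where 0.00%, 0.0145% and 0.00723% of all genes were called for ThTC against GFP-TC, ThTC against sECM only and GFP-TC against sECM only. At an unadjusted p under 0.05 limma gave 3 genes for ThTC against GFP-TC (Sox9, Gja1 and Aldoc), 1 for ThTC against sECM only (Sox9) and 0 for GFP-TC against sECM only, where 24.4%, 11.4% and 2.99% of all genes had one.

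**Figure D5:**
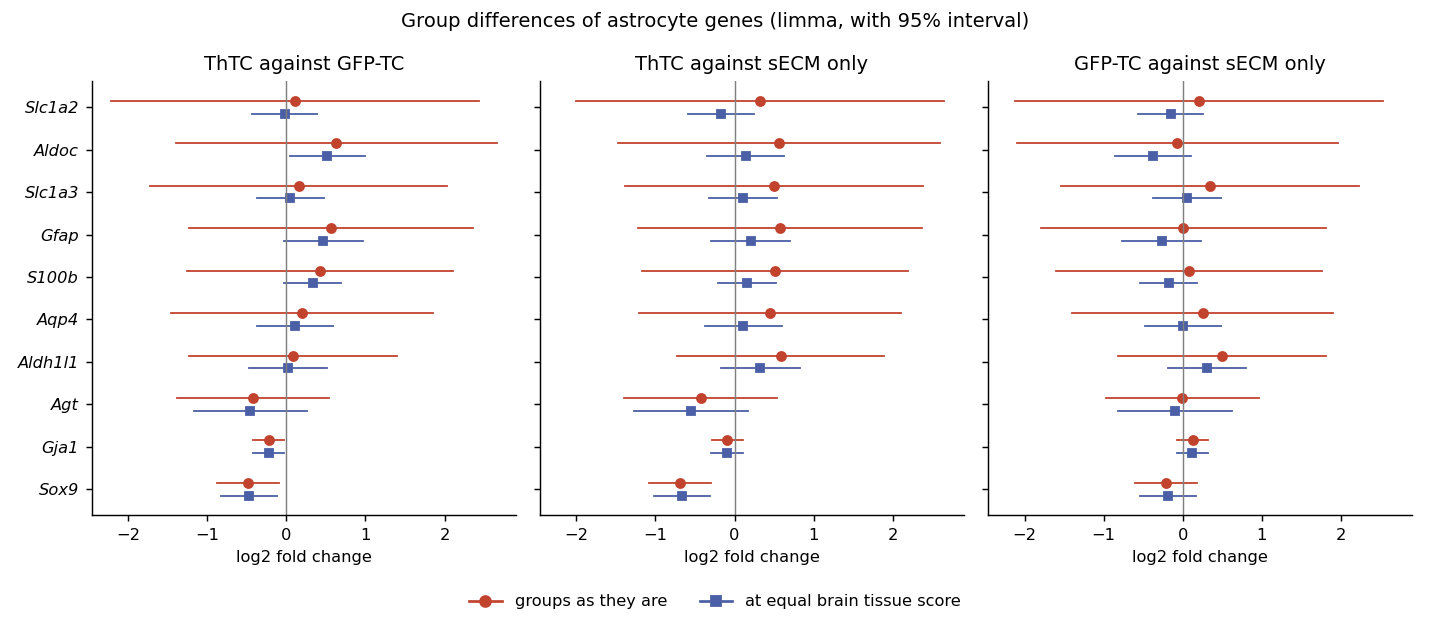
Log2 fold changes of the 10 astrocyte genes with 95% intervals (limma) for ThTC against GFP-TC, ThTC against sECM only and GFP-TC against sECM only; circles are the groups as they are and squares the differences at equal brain tissue score. The intervals of the 7 genes that rose with the score shrink at equal score, which follows from picking them by that score. Sox9 stays near -0.47 and -0.66 in both comparisons of ThTC.

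Marker lists of other cells were set beside the Sox9 values. Of 8 microglia and macrophage genes, 7 had higher mean log2 levels with ThTC in each of its comparisons, against 33.8% of all genes for GFP-TC as the control and 44.4% for sECM only, with 0 called and 2 at an unadjusted p under 0.05 (limma). Their summed level was 1197 to 2264 TPM with ThTC, 640 to 1263 TPM with GFP-TC and 854 to 1099 TPM with sECM only. The sums with ThTC overlapped those with GFP-TC and lay above those with sECM only. Lyz2, a lysozyme gene of myeloid cells, was the largest part of the sum. Without Lyz2 the ThTC libraries overlapped both other groups, at 503 to 838 TPM with ThTC, 267 to 699.6 TPM with GFP-TC and 432 to 529 TPM with sECM only. Of 17 glioma, progenitor and cycling genes, 12 had lower mean log2 levels with ThTC than with GFP-TC and 11 lower than with sECM only, where 66.2% and 55.6% of all genes did. Of the 17, 0 were called by limma, and 1 and 3 had an unadjusted p under 0.05, where 14.9% and 6.90% of all genes did. The 3 with the smallest p in both were Nes, an intermediate filament gene of progenitors, Sox2 and Cspg4, with log2 fold changes of -0.53, -0.48 and -0.48 against GFP-TC and -0.45, -0.51 and -0.58 against sECM only. Of the 17, 5 had higher mean log2 levels with ThTC than with GFP-TC and 6 higher than with sECM only. Among them were Fabp7, Olig2 and Prom1, at 0.72, 0.30 and 0.15 against GFP-TC and 0.99, 0.69 and 0.61 against sECM only. The median of the list was -0.19 and -0.10, where that of all genes was -0.10 and -0.032. That list summed to 4435 to 5735 TPM with ThTC, 5289 to 6227 TPM with GFP-TC and 5426 to 5686 TPM with sECM only. Vim, with a mean of 4133 TPM over the 9 libraries, was the largest part of these sums, and no sum without it was computed. The part of these cells in the Sox9 values was not tested. Of the 24 other astrocyte genes, 20 had higher mean log2 levels with ThTC than with GFP-TC and 22 higher than with sECM only, and 0 were called or had an unadjusted p under 0.05 (limma).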

How the data were processed

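The authors deposited TPM, 1 value for each gene in each of 9 libraries. HISAT and the builds GRCm38.p6 and mm10 are named without versions in the submitters' processing notes, while the quantification tool, annotation and filters are not given in the sources used here. Per the labels' protocols, column-purified total RNA was sequenced on the DNBseq platform. TPM divides by the library's own total, so library totals were equal to within 0.74 TPM of the nominal sum, and genes that go up push the others down. No 2 libraries shared more than 0.419% of their values.

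Values were analysed as log2(TPM + 1), which understates the change of low genes. Genes with at least 1 TPM in 3 libraries or more entered limma 3.58.1 (R 4.3.3, intensity trend), with all 9 libraries in each main fit and Benjamini-Hochberg adjustment over all tested genes at a threshold of 0.05. Alternative fits of fewer libraries were filtered and adjusted on their own, with 13684 genes tested in the 6 libraries of ThTC and GFP-TC. Intervals are 95% intervals. For slopes the 24 score genes were left out of the counts over all genes. The limma fits for groups and slopes were run on simulated data with independent noise. The simulated group comparison held no gradient of brain content, so it does not show how that fit performs with one. Plots used matplotlib 3.10.9 in Python 3.11.15.

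The members and the gene lists were chosen with earlier results of these data known. Named beside the 10 members were the 3 genes of a list with the smallest p, the 3 genes most like Gfap, Aqp4 and Sox9, and Snap25. The microglia and macrophage sum without Lyz2 was added after the values were seen. Ttr, Vim and the members of a list given because they were the few that fell, rose or did not pass were named after their values were seen. Promoters of the 2 highest and 2 lowest slopes were to be shown. Genes without an entry, on chromosome 18 or with an exon in the window were passed over, the last condition being set after the windows were seen.

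Pairing by replicate number was checked on the deviations of libraries from their group means. Between ThTC and GFP-TC these had correlations of 0.74 (number 1), 0.12 (number 2) and 0.87 (number 3), each above 0.1. ThTC 2 had a higher one with GFP-TC 1, at 0.38, and GFP-TC 3 reached 0.61 with sECM only 1. The brain tissue scores of same-numbered ThTC and GFP-TC libraries were also close, and the part of brain content in these correlations was not tested. Same-numbered ThTC and GFP-TC libraries were treated as pairs in an alternative fit, although no label explains the numbers. sECM only libraries correlated at -0.55, 0.28 and -0.205 with ThTC and at -0.53, -0.14 and -0.19 with GFP-TC. These values gave little ground for pairing. Even so, alternative fits with a replicate block over all 9 libraries, or over sECM only and another group, blocked sECM only libraries by number. Alternatives were a pseudocount of 0.1, other filters, median-of-ratios scaling, the score as a covariate, scores from either list alone, a replicate block, fits of the 2 groups compared and fits without single libraries.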

Additional observations from a re-analysis of the deposited data

How the results depend on the processing

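The count of astrocyte genes called was 0 in each group comparison and 7 for the slope under every alternative run, the replicate block included (0 and 7). Group differences that were not called changed sign as follows. With median-of-ratios scaling, GFP-TC against sECM only was -0.084 for Gfap and -0.0076 for S100b, and the slope of Gja1 was -0.037. At equal score, Slc1a2 was -0.021, -0.17 and -0.15 for ThTC against GFP-TC, ThTC against sECM only and GFP-TC against sECM only, and GFP-TC against sECM only was -0.26 for Gfap and -0.18 for S100b. Without ThTC 3 and GFP-TC 3, a setting chosen for the group comparisons after seeing the data, Aldh1l1 was -0.060 for ThTC against GFP-TC. ThTC against sECM only was then -0.12 for Aqp4, -0.12 for S100b, -0.61 for Slc1a2, -0.17 for Slc1a3 and -0.16 for Aldoc, and GFP-TC against sECM only -0.71 for Gfap, -0.29 for Aqp4, -0.52 for S100b, -0.77 for Slc1a2, -0.33 for Slc1a3 and 0.0016 for Agt. The same setting gave log2 ratio slopes of -0.023 for Slc1a2 against Slc1a3 and 0.87 for Aqp4 against Sox9 (exact permutation p = 0.89 and 0.051). With a pseudocount of 0.1 Slc1a2 against Slc1a3 was 0.21 (exact permutation p = 0.0466). Apart from the construction of these settings, the causes were not tested.

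Leaving out each library in turn gave ranges that crossed 0. For ThTC against GFP-TC these were -0.31 to 1.28 for Gfap, -0.59 to 0.74 for Aqp4, -0.22 to 1.05 for S100b, -0.85 to 1.09 for Slc1a2, -0.74 to 0.83 for Slc1a3, -0.47 to 0.58 for Aldh1l1 and -0.23 to 1.53 for Aldoc. For ThTC against sECM only they were -0.12 to 0.94 for Aqp4, -0.12 to 1.13 for S100b, -0.61 to 0.95 for Slc1a2, -0.17 to 1.02 for Slc1a3 and -0.16 to 1.03 for Aldoc. For GFP-TC against sECM only they were -0.71 to 0.88 for Gfap, -0.29 to 1.04 for Aqp4, -0.52 to 0.73 for S100b, -0.77 to 1.17 for Slc1a2, -0.33 to 1.24 for Slc1a3, -0.97 to 0.80 for Aldoc and -0.21 to 0.30 for Agt. The slope ranged over -0.10 to 0.020 for Sox9, over -0.022 to 0.049 for Gja1 and over 0.044 to 0.41 for Agt, which was 0.045 with the replicate block. Slc1a2 against Slc1a3 kept its sign, at 0.14 to 0.23, and passed the threshold without GFP-TC 2 (exact permutation p = 0.0295). Sox9 was lower with ThTC throughout, at -0.65 to -0.34 against GFP-TC and -0.85 to -0.55 against sECM only. TPM keeps no depth, so what depth limits is unknown.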
